A study of Macaca mulatta with 449 samples.

Results

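The striatum is the input nucleus of the basal ganglia, and here it comprised the accumbens nucleus (ACb), the caudate nucleus (CN) and the putamen (PUT). Its transcriptome was set against that of the neocortex in the same 8 rhesus macaques. The members were chosen by anatomy, namely all libraries of the 3 striatal sub-regions and of 31 neocortical sub-regions, which gave 24 striatal and 248 neocortical libraries. The gene count table held 136 further RNA-seq libraries, from other brain regions. Each animal contributed 1 library per sub-region, and the counts were summed within an animal, so that each animal had 1 striatal and 1 neocortical profile. The animals were 4 males and 4 females. Of each sex, 2 were young (3.2 to 5 years) and 2 mid-aged (9.8 to 10 years). RNA was sequenced after ribosomal RNA was removed. All samples were dissected tissue, in which fewer cells of a type and less RNA per cell cannot be told apart.

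Most striatal neurons are medium spiny neurons, GABAergic projection cells that receive glutamatergic input from the cortex and thalamus and dopamine from the midbrain. Those of the direct pathway carry the D1 dopamine receptor and release substance P and dynorphin, whereas those of the indirect pathway carry the D2 dopamine receptor and the adenosine receptor ADORA2A and release enkephalin. Both kinds relay receptor signals through cyclic AMP to PPP1R1B (DARPP-32), which inhibits protein phosphatase 1 when phosphorylated. The main projection neurons of the neocortex are glutamatergic and are specified by factors such as TBR1 and FEZF2.

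Striatal libraries held 7842729 to 12153518 counted reads and neocortical ones 7784678 to 31083490. The summed profiles held 26280694 to 34235662 and 297336760 to 428597814 reads, so that a low level was measured less precisely in striatum. Levels are given as CPM (counts scaled to a common read total by the TMM method of edgeR), which do not allow for gene length and are compared only within a gene. A gene was called at a Benjamini-Hochberg adjusted p (FDR) < 0.05 in edgeR's quasi-likelihood test, with the animal as a block, and an absolute log2 fold change (log2FC, striatum over neocortex) above 1. The animals are separate individuals, so the tests measure the spread between animals.

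Some striatal libraries held transcripts of cortical glutamatergic neurons, and 3 passed a cut of 5% of the neocortical level, set after the data were seen. The median level of SLC17A7, TBR1, NEUROD2 and NEUROD6 was 32.8% of that in the animal's own neocortex in ACb of Rhesus 10, 13.7% in PUT of Rhesus 3 and 7.43% in ACb of Rhesus 11. The next was ACb of Rhesus 7 at 4.05%, which was kept, so no wide gap marks the cut. The 8 CN libraries lay between 0.082% and 0.504%. For the summed striatum against neocortex or amygdala, fold changes and ratios that moved by over 1.5 times without the 3 libraries are given both ways. Values by sub-region and fold changes over the globus pallidus include the 3 libraries and are not given without them. SLC17A7, TBR1, NEUROD2 and NEUROD6 served to choose the 3 libraries. A larger difference of these genes without the libraries follows from that choice. Other genes of cortical neurons are not independent of the choice either, so their values without the libraries add no separate support. Leaving out the 3 libraries changed the call of CAMK4 and CARTPT among the genes named below.

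**Figure D1:**
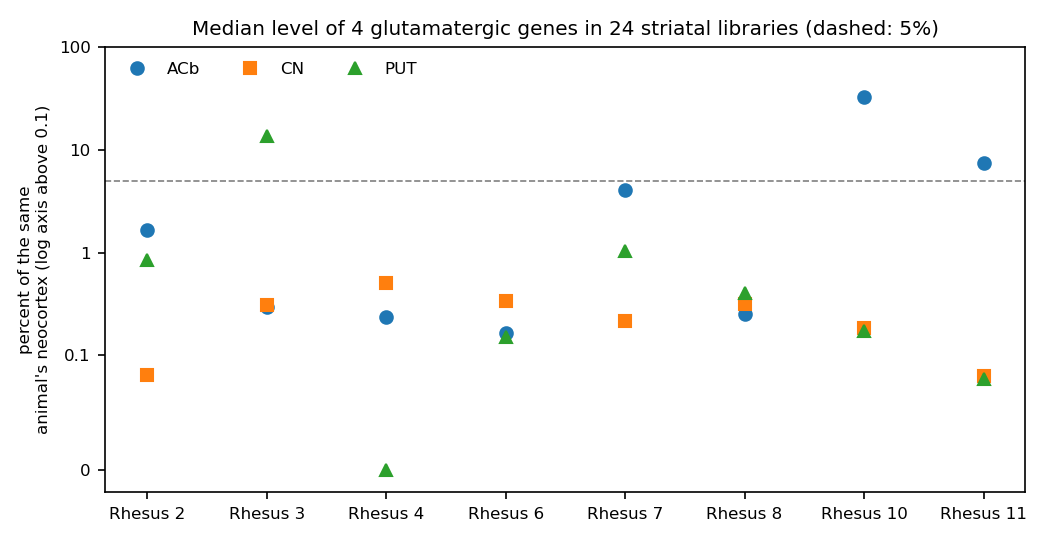
Median level of SLC17A7, TBR1, NEUROD2 and NEUROD6 in each of the 24 striatal libraries, as a percentage of the level in the neocortex of the same animal (vertical axis, logarithmic above 0.1%), by animal and sub-region. The 3 points above the dashed line at 5% are ACb of Rhesus 10, ACb of Rhesus 11 and PUT of Rhesus 3.

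Of 18631 genes tested, 1668 (8.95%) were called higher in striatum and 1669 (8.96%) lower. The median log2FC over all genes tested was -0.003. In 1897 genes (10.2%) the 8 striatal profiles all lay above the 8 neocortical ones, and in 2439 (13.1%) all lay below. Both markers of the striatum were among the former. ADORA2A, an adenosine receptor that raises cyclic AMP, ranged over 313 to 509 CPM (median 426) in striatum and 3.08 to 5.01 CPM (median 4.14) in neocortex. PPP1R1B ranged over 1759 to 2444 CPM (median 2195) in striatum and 113 to 144 CPM (median 121) in neocortex. For neither gene did the groups come near each other (log2FC 6.68, SE 0.15, FDR = 1.1e-11 for ADORA2A, and log2FC 4.09, SE 0.077, FDR = 4.8e-13 for PPP1R1B). SLC17A7, the vesicular glutamate transporter of cortical neurons, stood at 692 to 915 CPM (median 769.9) in the neocortical profiles.

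Genes known from medium spiny neurons of both pathways were mostly higher in striatum. Of 29 measured members of this list, 22 were called higher and 1 lower, with a median log2FC of 2.82. The lists here and below were chosen with earlier results of these data known, so their counts are descriptive and no independent test. ARPP21, a phosphoprotein regulated by cyclic AMP, had 3318 to 4568 CPM (median 3845) in striatum and 345 to 551 CPM (median 437) in neocortex (log2FC 3.12, SE 0.059, FDR = 4.8e-13). RGS9, which speeds the shut-off of G proteins at dopamine receptors, had 131 to 207 CPM (median 176) and 2.29 to 3.51 CPM (median 2.75) (log2FC 5.93, SE 0.10, FDR = 6.6e-13). In both genes every striatal profile was several times any neocortical one. PDE10A, a phosphodiesterase that breaks down cyclic AMP and cyclic GMP, spread more widely over the striatal profiles, with 91.3 to 449 CPM (median 249.6) against 5.26 to 12.4 CPM (median 7.19) (log2FC 4.93, SE 0.17, FDR = 1.1e-09). Its lowest striatal profile was still above the highest neocortical one.

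Other large differences on this list were those of PTPN7, a tyrosine phosphatase (log2FC 6.68), CA12, a carbonic anhydrase (log2FC 6.31), GPR149, an orphan receptor (log2FC 5.02), COCH, a secreted protein of the inner ear (log2FC 4.32) and PCP4, a calmodulin-binding protein (log2FC 4.17). PTPN7 ranged over 14.8 to 27.7 CPM (median 19.5) in striatum and 0.0784 to 0.47 CPM (median 0.174) in neocortex (log2FC 6.68, SE 0.31, FDR = 1.0e-08). PTPN5, the striatum-enriched tyrosine phosphatase, was well expressed in both regions, at 918 to 1203 CPM (median 1111) and 167 to 215 CPM (median 202) (log2FC 2.46, SE 0.05, FDR = 6.6e-13). The profiles of both phosphatases were apart in all animals.

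RASGRF2, an exchange factor for Ras, was the one member called lower, with 91.1 to 219.9 CPM (median 146) in striatum and 417 to 617 CPM (median 484) in neocortex (log2FC -1.72, SE 0.10, FDR = 2.6e-08). ITPKA, KCNJ4, CAMK4, SPON1, GPR155 and CNR1 were not called. CAMK4, a kinase activated by calcium and calmodulin, lay at the limit, with a log2FC of 0.97, and was called without the 3 libraries (log2FC 1.06). ITPKA, an inositol trisphosphate kinase of dendritic spines, had 83.4 to 127 CPM (median 97.3) and 74.6 to 127 CPM (median 91.1) (log2FC 0.08, SE 0.064, FDR = 0.31), and its groups overlapped. CNR1, the cannabinoid receptor, differed by 0.71 on the log2 scale (FDR = 0.0025), below the fold required, and moved in opposite directions in ACb and PUT, as given below.

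**Figure D2:**
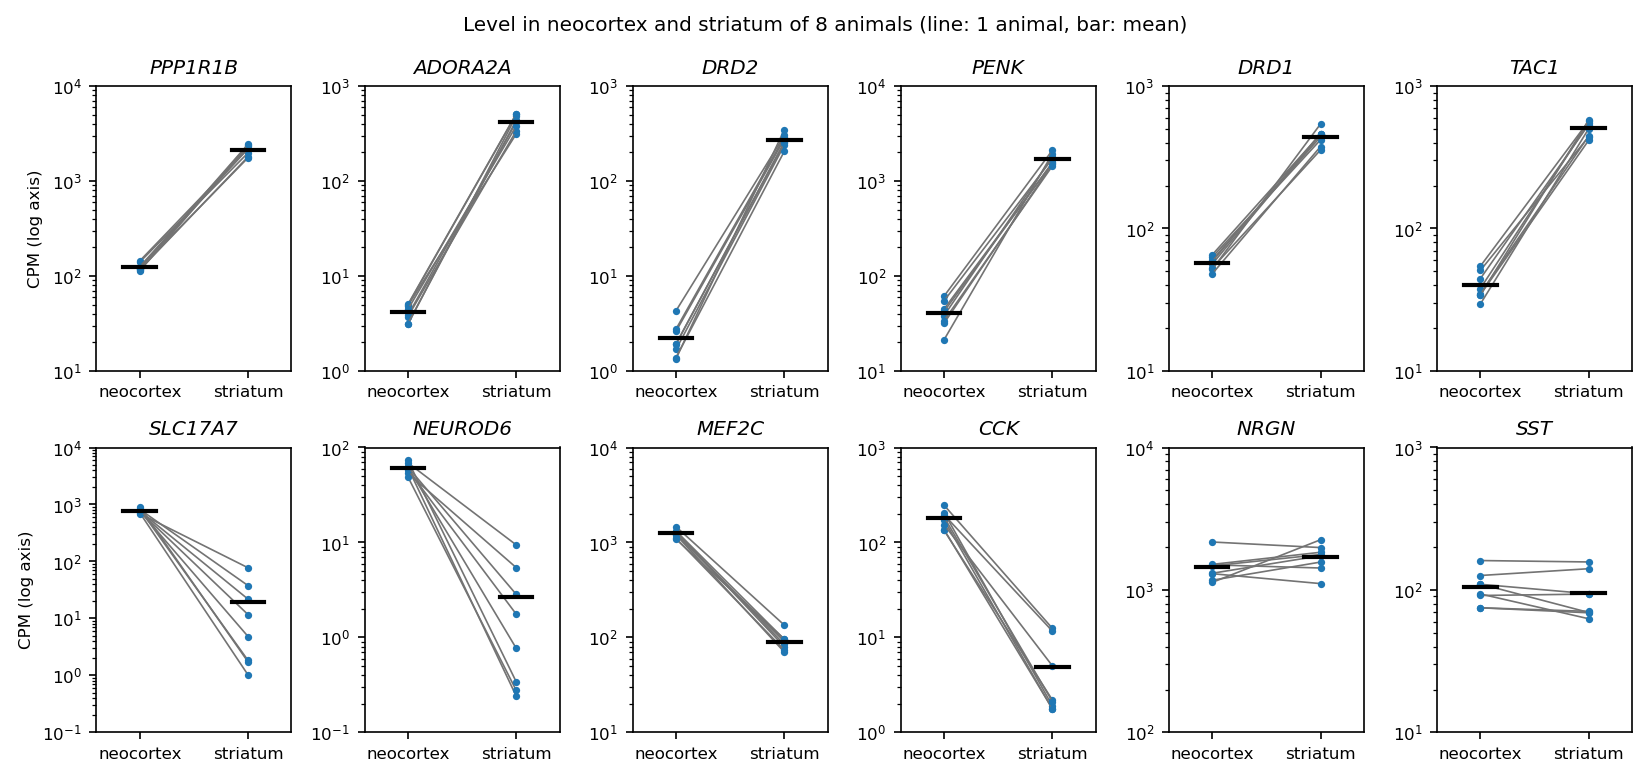
CPM of 12 genes (logarithmic axis) in the neocortical and striatal profile of each of the 8 animals, joined by a line, with the mean as a bar. The 6 genes of the upper row are higher in all 8 striatal profiles, SLC17A7, NEUROD6, MEF2C and CCK are lower in all 8, and the ranges of NRGN and SST overlap.

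Direct pathway genes were higher in 7 of 11 and lower in 1, with a median log2FC of 2.02. DRD1, the D1 receptor, had 356 to 541 CPM (median 449) in striatum and 48.03 to 65.3 CPM (median 57.4) in neocortex (log2FC 2.94, SE 0.069, FDR = 2.3e-12). TAC1, the precursor of substance P, had 416 to 576 CPM (median 518) and 29.4 to 54.3 CPM (median 36.4) (log2FC 3.68, SE 0.11, FDR = 5.7e-11). PDYN, the precursor of dynorphin, had 414 to 714 CPM (median 539) and 49.98 to 74.03 CPM (median 59.1) (log2FC 3.27, SE 0.11, FDR = 1.4e-10). All 3 were detected in every neocortical profile, and no striatal profile came near the neocortical range. CHRM4, the inhibitory M4 muscarinic receptor, differed less, at 27.4 to 47.9 CPM (median 45.3) against 7.15 to 13.1 CPM (median 10.7) (log2FC 2.02, SE 0.13, FDR = 5.9e-08). ISL1, a homeodomain factor on this list, was almost absent from neocortex. It had 2542 reads in striatum against 13 in neocortex, a ratio per read counted of 2247 (95% exact Poisson interval 1314 to 4220.0). Which striatal cells carried ISL1 was not measured.

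Indirect pathway genes were higher in 7 of 10 and lower in 1, with a median log2FC of 3.37. DRD2, the D2 receptor, had 206 to 346 CPM (median 267) in striatum and 1.35 to 4.29 CPM (median 1.91) in neocortex (log2FC 7.0, SE 0.20, FDR = 2.0e-10). PENK, the precursor of enkephalin, had 1441 to 2109 CPM (median 1645) and 21.3 to 61.4 CPM (median 40.3) (log2FC 5.42, SE 0.17, FDR = 2.9e-10). GPR6, a receptor that raises cyclic AMP, had 91.5 to 149 CPM (median 105) and 0.846 to 1.54 CPM (median 1.24) (log2FC 6.45, SE 0.12, FDR = 2.1e-12). None of the 3 overlapped between the groups. The transcription factor SP9 differed less (log2FC 1.69, SE 0.15, FDR = 7.2e-07). NELL1, a secreted protein, was called lower at a log2FC of -1.08 (FDR = 2.0e-04), but its groups overlapped at their edges, and the call was lost without Rhesus 2 (log2FC -0.977) and without Rhesus 7 (log2FC -0.988).

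Among genes of dopamine signalling, 6 of 13 were higher and 1 lower (median log2FC 0.61). The D3 receptor gene DRD3 stood at 22.8 to 46 CPM (median 29.9) in striatum and 0.204 to 0.491 CPM (median 0.338) in neocortex (log2FC 6.49, SE 0.15, FDR = 1.0e-11). DRD5, the D5 receptor, ran the other way without being called, at 0.9 to 2.96 CPM (median 1.83) in striatum and 2.24 to 4.07 CPM (median 2.81) in neocortex (log2FC -0.74, SE 0.25, FDR = 0.023). TH and DDC, the enzymes that make dopamine, were both called higher (log2FC 2.27 and 3.18). TH was scarce, at 0.202 to 1.72 CPM (median 0.756) in striatum against 0.09 to 0.32 CPM (median 0.131) in neocortex, and its groups overlapped. In PUT alone neither was called (log2FC 0.75 and 0.68). The transporter SLC18A2 and the oxidases MAOA and MAOB were not called. The dopamine transporter gene SLC6A3 did not pass the filter on low counts and was not tested.

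In the list of opioid and tachykinin peptides and their receptors, 6 of 12 were higher and 1 lower (median log2FC 0.85). Without the 3 libraries 5.0 were higher and the median was 0.54. CARTPT, the precursor of a further peptide, was then no longer called (log2FC 1.06 with and 0.59 without them), nor was it without Rhesus 7 (log2FC 0.95) or without Rhesus 8 (log2FC 0.889). Of the 3 libraries 2 are from ACb, where CARTPT was highest, as given below. OPRK1, the dynorphin receptor, had 5.93 to 10.6 CPM (median 8.78) in striatum and 0.614 to 1.29 CPM (median 1.08) in neocortex (log2FC 3.02, SE 0.15, FDR = 1.6e-09). TACR1, the substance P receptor, had 26.04 to 48.03 CPM (median 31.2) and 6.31 to 9.25 CPM (median 7.25) (log2FC 2.17, SE 0.064, FDR = 1.1e-11). Both receptors, like the genes of their ligands, were higher in striatum with no overlap. PNOC, the precursor of nociceptin, was the member that was lower, at 2.85 to 5.45 CPM (median 4.1) against 11.96 to 17.8 CPM (median 14.8) (log2FC -1.86, SE 0.092, FDR = 1.4e-09), and the mu receptor gene OPRM1 was not called (log2FC 0.46).

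Families that shape the cyclic AMP signal had members in both directions. Of 10 adenylyl cyclases, 2 were higher and 3 lower (median log2FC 0.2). ADCY5, the main cyclase of medium spiny neurons, had 793 to 1141 CPM (median 976) in striatum and 91.2 to 111 CPM (median 108) in neocortex (log2FC 3.23, SE 0.071, FDR = 1.5e-12), and ADCY3 followed at a log2FC of 1.57. ADCY2 had the opposite pattern, at 24.4 to 37.5 CPM (median 27.8) and 161 to 227 CPM (median 195) (log2FC -2.74, SE 0.072, FDR = 5.3e-12), with ADCY8 (log2FC -1.79) and ADCY6 (log2FC -1.04) also lower. The call of ADCY6 was lost without Rhesus 2 (log2FC -0.96). Of 19 phosphodiesterases, 4 were higher and 3 lower. PDE1B and PDE1A, both activated by calmodulin, differed in opposite directions, PDE1B with 429 to 703 CPM (median 605) against 62.4 to 102 CPM (median 87.8) (log2FC 2.82, SE 0.072, FDR = 4.6e-12) and PDE1A with 7.46 to 24.8 CPM (median 18.6) against 60.4 to 95 CPM (median 77.6) (log2FC -2.21, SE 0.15, FDR = 2.0e-07). PDE7B was higher (log2FC 1.87) and PDE4D lower (log2FC -1.88).

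Of the regulators of G protein signalling, 5 of 19 were higher and 2 lower (median log2FC 0.3). Over all genes 8.95% were higher and 8.96% lower, so the shares lower among these regulators and around protein phosphatase 1, and higher among G protein subunits, were near or below the background. RGS14 had 722 to 1138 CPM (median 937) in striatum and 40.4 to 62.9 CPM (median 48.5) in neocortex (log2FC 4.18, SE 0.068, FDR = 2.5e-13), and RGS8 was higher as well (log2FC 3.0). RGS4, a regulator common in cortical neurons, had 101 to 253 CPM (median 125) against 575 to 926 CPM (median 705) (log2FC -2.32, SE 0.084, FDR = 1.3e-10), and RGS6 was lower as well (log2FC -3.54). Of 24 G protein subunits only GNG7, the gamma subunit that pairs with the stimulatory G protein of the striatum, was called higher (log2FC 3.49, SE 0.11, FDR = 7.6e-11). GNAS, the stimulatory alpha subunit used elsewhere, was lower, at 522 to 818 CPM (median 676) against 1637 to 2499 CPM (median 1857) (log2FC -1.53, SE 0.074, FDR = 1.3e-09), as were GNA14, GNG2 and GNG13. Around protein phosphatase 1, 6 of 24 were higher and 2 lower (1 lower without Rhesus 2, without Rhesus 3, without Rhesus 7 or without the block). PPP1R1A, an inhibitor related to DARPP-32, had 143 to 256 CPM (median 196) and 33.5 to 49.6 CPM (median 39.9) (log2FC 2.25, SE 0.11, FDR = 5.7e-09), whereas the catalytic subunits PPP1CA, PPP1CB and PPP1CC were not called.

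**Figure D3:**
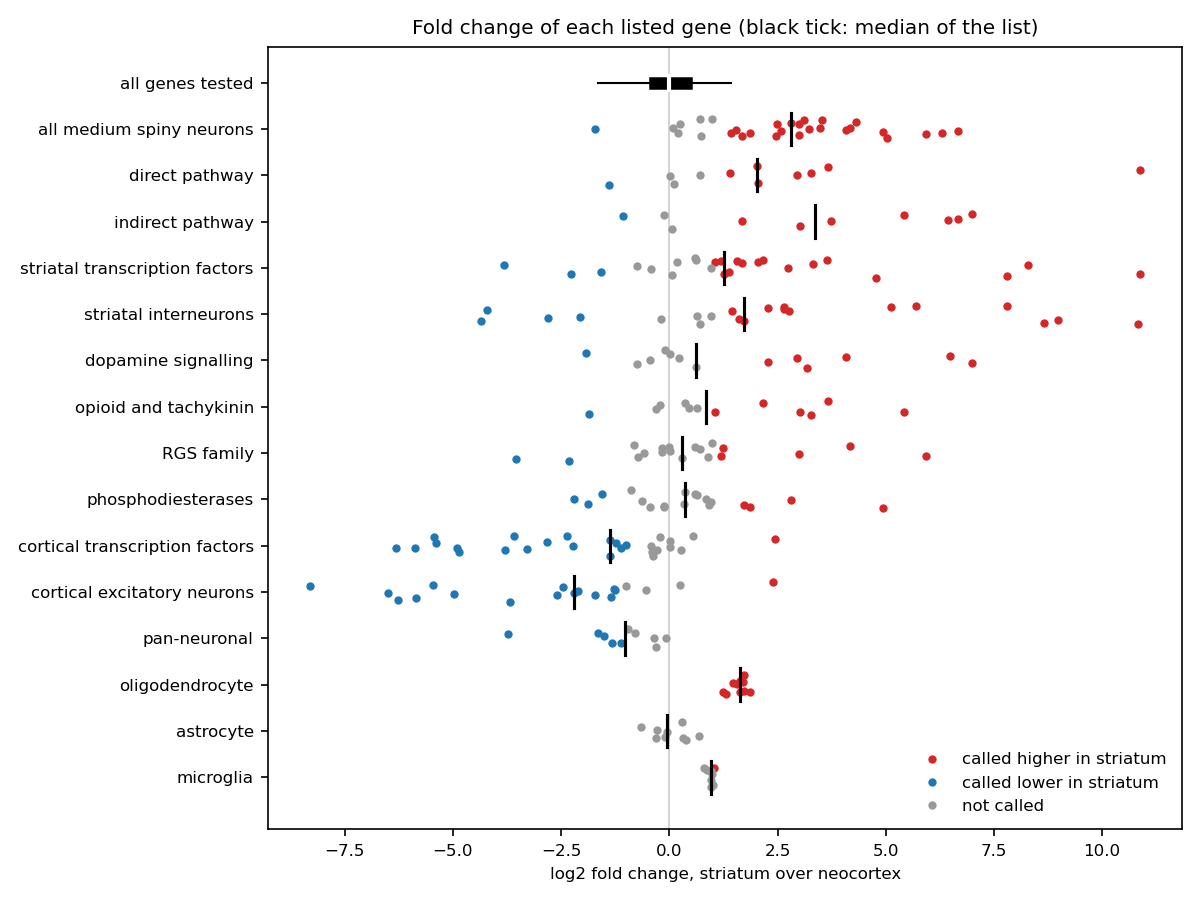
log2FC of striatum over neocortex (horizontal axis) of every tested member of 15 gene lists, red where called higher, blue where called lower and grey where not called, with the median of each list as a black tick. The top line gives the 5th to 95th percentile of all genes tested and its thick part the quartiles, which lie close to 0, while the 3 medium spiny neuron lists have medians of 2.82, 2.02 and 3.37. Values are fitted, and those of ISL1, CHAT and other genes with few neocortical reads are no measure of size.

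Transcription factors of striatal development and identity were higher in 15 of 25 and lower in 3, with a median log2FC of 1.27. SIX3, a homeobox factor, had 16.6 to 24.4 CPM (median 18.4) in striatum and 0.0415 to 0.0882 CPM (median 0.0602) in neocortex (log2FC 8.29, SE 0.13, FDR = 2.5e-13). LHX8, a LIM factor of cholinergic interneurons, had 7.38 to 10.96 CPM (median 9.62) and 0.015 to 0.0714 CPM (median 0.0416) (log2FC 7.81, SE 0.19, FDR = 2.5e-12). RXRG, a retinoid receptor, had 93.8 to 165 CPM (median 139) and 3.93 to 6.03 CPM (median 4.95) (log2FC 4.78, SE 0.11, FDR = 7.6e-12). These 3 were close to absent or low in neocortex and clear of it in all animals. MEIS2 and PBX3, which were well expressed in both regions, were higher by 2.17 and 2.74 on the log2 scale, BCL11B (CTIP2) by 3.32 and FOXP1 by 1.27. NKX2-1, a factor of the ventral telencephalon, had 0.865 to 2.36 CPM (median 1.59) in striatum and 0.0842 to 0.204 CPM (median 0.119) in neocortex (log2FC 3.64, SE 0.17, FDR = 8.2e-10). FOXP2 was not called (log2FC 0.6, FDR = 6.0e-04). DLX1, a factor of GABAergic neurons in both regions, was lower in striatum, at 3.07 to 4.9 CPM (median 3.71) against 16.02 to 20.8 CPM (median 18.2) (log2FC -2.27, SE 0.088, FDR = 1.4e-10), as was SP8 (log2FC -3.82).

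Cortical transcription factors showed the reverse, with 17 of 27 lower in striatum and 1 higher (median log2FC -1.37). NEUROD6, a helix-loop-helix factor of pyramidal neurons, had 0.241 to 9.43 CPM (median 1.26) in striatum and 49.2 to 72.99 CPM (median 62.04) in neocortex (log2FC -4.87, SE 0.57, FDR = 9.0e-05). TBR1, a factor of deep-layer neurons, had 0.0931 to 4.65 CPM (median 0.568) and 35.8 to 81.5 CPM (median 61.2), that is 169621 reads in neocortex against 286 in striatum, a ratio per read counted of 51.6 (95% exact Poisson interval 45.96 to 58.2). MEF2C, an activity-dependent factor, had 70.2 to 135 CPM (median 87.4) and 1086 to 1467 CPM (median 1253) (log2FC -3.81, SE 0.079, FDR = 9.1e-13). The groups were apart, but the highest striatal profiles of NEUROD6 and TBR1 were those of Rhesus 3 and Rhesus 10. Without the 3 libraries the log2FC of NEUROD6 was -6.88, against -4.87 with them. NEUROD2, of the same family, had 109348 reads in neocortex against 257 in striatum, a ratio per read counted of 37.03 (95% exact Poisson interval 32.8 to 42.01). Most striatal reads of TBR1 and NEUROD2 came from the 3 libraries. Without them TBR1 had 64 striatal reads and a ratio of 201 (interval 157 to 260.4), and NEUROD2 had 50 striatal reads and a ratio of 165 (interval 125 to 223). CUX2 and RORB, factors of upper layers, were lower (log2FC -3.6 and -3.28), and so was FEZF2, a factor of subcortical projection neurons (log2FC -1.23).

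The member that was higher was TLE4, a corepressor and deep-layer marker, with 198 to 274 CPM (median 214) in striatum and 36.6 to 43.4 CPM (median 40.3) in neocortex (log2FC 2.44, SE 0.054, FDR = 1.4e-12). Its groups were apart in all animals.

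Of 19 markers of cortical excitatory neurons, 15 were lower and 1 higher (median log2FC -2.21, and -2.51 without the 3 libraries). SLC17A7 had 1.02 to 77.4 CPM (median 8.23) in striatum (log2FC -6.26, SE 0.88, FDR = 3.6e-04), and its striatal profiles spread widely. Without the 3 libraries, which SLC17A7 had helped to choose, its log2FC was -8.28. SLC17A6, the second vesicular glutamate transporter, had 0.154 to 2.05 CPM (median 0.826) against 62.7 to 101 CPM (median 90.1) (log2FC -6.5, SE 0.28, FDR = 5.5e-09), and SLC30A3, the vesicular zinc transporter, had 0.423 to 5.56 CPM (median 1.33) against 86.7 to 124 CPM (median 93.4) (log2FC -5.86, SE 0.33, FDR = 9.8e-08). CCK, a peptide, had 1.76 to 12.5 CPM (median 2.15) against 134 to 247 CPM (median 179) (log2FC -5.46, SE 0.36, FDR = 9.0e-07). All were clear of the neocortical range in all animals. Without the 3 libraries the log2FC was -7.61 for SLC17A6, -6.72 for SLC30A3 and -6.49 for CCK.

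Smaller or opposite differences were also found on this list. CAMK2A, the alpha subunit of a calcium-dependent kinase, was lower but abundant in both regions, at 695 to 1090.1 CPM (median 866) against 1949.6 to 2567 CPM (median 2216) (log2FC -1.34, SE 0.058, FDR = 4.2e-10). NRGN, a calmodulin-binding protein of dendrites, was not called, at 1108 to 2251 CPM (median 1756) against 1129.8 to 2171 CPM (median 1393) (log2FC 0.24, SE 0.12, FDR = 0.088). CRYM, a thyroid hormone binding protein, was higher in striatum, at 372 to 571 CPM (median 397) against 65.8 to 106 CPM (median 73.6) (log2FC 2.39, SE 0.10, FDR = 1.9e-09).

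Other cell types moved beside these lists. All 10 oligodendrocyte markers were higher in striatum (median log2FC 1.62), and their summed level ranged over 6849.6 to 12469.9 CPM in striatum and 2647 to 3483 CPM in neocortex. Of 10 pan-neuronal genes, 5 were lower and 0 higher (median log2FC -1.04), with a summed level of 5873 to 7392 CPM and 14081 to 15215 CPM. ELAVL4 and SNAP25 were among those lower (log2FC -3.73 and -1.51). Astrocyte (9 tested), oligodendrocyte precursor (6 tested) and endothelial (8 tested) markers had no called member, with median log2FC of -0.05, 0.23 and 0.34. Microglial markers had a median of 0.96 with 1 of 8 called, namely C1QC (log2FC 1.03), whose call was lost without Rhesus 2 (log2FC 0.977). Their summed level was 192 to 329.5 CPM in striatum and 94.6 to 147 CPM in neocortex. Choroid plexus markers were higher in 4 of 7 and lower in 1, with a summed level of 44.5 to 96.9 CPM against 13.5 to 27.8 CPM. By medians, most of the summed level in ACb and CN was AQP1, which is described by sub-region below, as is TTR. The member that was lower was CLIC6. It had 14729 reads in neocortex against 84 in striatum, a ratio per read counted of 15.3 (95% exact Poisson interval 12.3 to 19.1). The part of these cell types in the differences above was not tested.

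Among the genes of GABA synthesis and transport, GAD2 and SLC32A1, a synthesis enzyme and the vesicular transporter, were higher, with 781 to 1098 CPM (median 949) against 268 to 325 CPM (median 303) (log2FC 1.63, SE 0.054, FDR = 3.3e-11) and 185 to 251 CPM (median 212) against 57.7 to 78.7 CPM (median 62.3) (log2FC 1.73, SE 0.052, FDR = 1.5e-11). GAD1, the other synthesis enzyme, was lower in all 8 animals without being called, at 306 to 415 CPM (median 357) against 417 to 476 CPM (median 444) (log2FC -0.32, SE 0.044, FDR = 3.1e-05). The remaining 4 of 7 genes were not called.

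Interneuron genes were higher in 13 of 21 and lower in 4 (median log2FC 1.73). Among genes of cholinergic interneurons, 2 had very few reads in neocortex. CHAT, which makes acetylcholine, had 1339 reads in striatum against 6 in neocortex, a ratio per read counted of 2564 (95% exact Poisson interval 1178 to 6988). SLC18A3, its vesicular transporter, had 1811 reads in striatum against 48 in neocortex, a ratio per read counted of 434 (95% exact Poisson interval 327 to 588). In striatum CHAT was not abundant either, at 2.28 to 8.71 CPM (median 5.26). SLC17A8, a glutamate transporter that cholinergic interneurons also carry, had 3.34 to 7.21 CPM (median 5.38) against 0.0431 to 0.251 CPM (median 0.168) (log2FC 5.13, SE 0.26, FDR = 4.1e-09).

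NPY and NOS1, which mark a further class, were higher (log2FC 2.65, SE 0.087, FDR = 6.1e-11 for NPY, and log2FC 1.61, SE 0.13, FDR = 2.9e-07 for NOS1). Their partner SST was not called, at 62.8 to 157 CPM (median 82.1) in striatum and 74.97 to 161 CPM (median 102) in neocortex (log2FC -0.19, SE 0.085, FDR = 0.07). PVALB, a calcium-binding protein of fast-spiking interneurons, was far lower in striatum, at 1.41 to 4.22 CPM (median 2.65) against 40.8 to 60.7 CPM (median 49.3) (log2FC -4.22, SE 0.16, FDR = 8.2e-10), and VIP, a peptide of cortical interneurons, had 0.655 to 2.62 CPM (median 2.08) against 26.3 to 52.8 CPM (median 37.5) (log2FC -4.35, SE 0.23, FDR = 3.0e-08). CALB2 and CRHBP were lower as well (log2FC -2.07 and -2.79). PTHLH, a peptide hormone found in striatal fast-spiking cells, missed the fold required (log2FC 0.97, FDR = 2.5e-07). LAMP5, an interneuron marker in cortex, was higher in striatum, at 157 to 299.8 CPM (median 238) against 25.4 to 47.6 CPM (median 37.7) (log2FC 2.65, SE 0.091, FDR = 1.4e-10).

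The 12 named genes with the largest positive differences among those at 5 CPM or more were ADGRG7, ISL1, CHAT, AMBN, KRT77, SLC18A3, SIX3, LHX8, SYNDIG1L, DRD2, PTPN7 and ADORA2A. SYNDIG1L, known from the caudate and putamen, had 765 to 1299 CPM (median 1225) in striatum and 5.19 to 9.17 CPM (median 6.62) in neocortex (log2FC 7.36, SE 0.16, FDR = 1.1e-11). ADGRG7, an adhesion receptor, had 2261 reads in striatum against 9 in neocortex, a ratio per read counted of 2887 (95% exact Poisson interval 1521 to 6313), and AMBN, a protein of the enamel matrix, had 5491 reads in striatum against 36 in neocortex, a ratio per read counted of 1753 (95% exact Poisson interval 1266 to 2503). KRT77, a keratin, ranged over 2.19 to 82.4 CPM (median 24.3) in striatum and 0.0207 to 0.0546 CPM (median 0.0376) in neocortex. It spread more between striatal profiles than any other gene in this group, yet the lowest was above the highest neocortical profile.

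At the other end stood KCNS1, TWIST1, SLC17A6, NEUROD1, SLC17A7, MLIP, CHRNA2, TBR1, SLC30A3, RSPO2, TAFA1 and MET, of which 9 of 12 were also among the 12 largest without the 3 libraries, and those not described above follow. KCNS1, a modifying subunit of potassium channels, had 22.1 to 93.6 CPM (median 61.9) in neocortex and 171851 reads in neocortex against 48 in striatum, a ratio per read counted of 312 (95% exact Poisson interval 235 to 423). TWIST1, a helix-loop-helix factor, had 94660 reads in neocortex against 37 in striatum, a ratio per read counted of 223 (95% exact Poisson interval 162 to 316), and the nicotinic subunit gene CHRNA2 had 36226 reads in neocortex against 54 in striatum, a ratio per read counted of 58.4 (95% exact Poisson interval 44.7 to 77.7). NEUROD1 had 67108 reads in neocortex against 77 in striatum, a ratio per read counted of 75.8 (95% exact Poisson interval 60.7 to 96.1), and MLIP, known from muscle, had 86755 reads in neocortex against 109 in striatum, a ratio per read counted of 69.3 (95% exact Poisson interval 57.4 to 84.4). These intervals cover counting error only, not the spread between animals. Without the 3 libraries KCNS1 had 17 striatal reads and a ratio of 765 (interval 478 to 1313). TWIST1 had 12 striatal reads and a ratio of 597 (interval 342 to 1155), NEUROD1 17 striatal reads and a ratio of 299 (interval 187 to 513) and MLIP 61 striatal reads and a ratio of 108 (interval 83.8 to 141). RSPO2, a secreted activator of Wnt signalling, had 0.31 to 1.77 CPM (median 0.962) in striatum and 41.3 to 65.8 CPM (median 53.3) in neocortex (log2FC -5.76, SE 0.21, FDR = 7.0e-10), and MET, the receptor of hepatocyte growth factor, had 0.776 to 2.6 CPM (median 1.3) and 44.1 to 85.1 CPM (median 68.1) (log2FC -5.53, SE 0.23, FDR = 4.0e-09). TAFA1, a secreted protein of the brain, differed alike (log2FC -5.6, and -6.59 without the 3 libraries). All 3 were apart in every animal.

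Whether the difference from neocortex was shared by the 3 striatal sub-regions was examined by testing each against neocortex and the 3 against each other. ACb had 1501 genes (8.12% of those tested) called higher and 1705 (9.23%) lower, CN 1665 (9.02%) and 1726 (9.35%), and PUT 1481 (8.07%) and 2108 (11.5%). These comparisons share the neocortical profiles. Levels by sub-region come from a separate TMM scaling of the 24 striatal libraries. Among the sub-regions, 8396 of 14827 genes (56.6%) differed at FDR < 0.05. Of the 29 shared medium spiny neuron genes, 27 did so. The median log2FC over neocortex of that list was 2.24 in ACb, 3.12 in CN and 2.99 in PUT. These values include the libraries above the 5% cut, which came from ACb and PUT. The median level of the cortical genes behind that cut reached 32.8% of neocortex in ACb, 13.7% in PUT and 0.504% in CN. The part of cortical transcripts in the differences between sub-regions, here and below, was not tested.

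PPP1R1B had 1176 to 1899 CPM (median 1365) in ACb, 1750.2 to 2856 CPM (median 2464) in CN and 2261 to 3154 CPM (median 2655) in PUT (FDR = 6.6e-08 in edgeR's F test over the 3). ANO3, an anoctamin, had 392 to 1067 CPM (median 556), 1263 to 2349 CPM (median 1914) and 1985 to 2646 CPM (median 2332) (FDR = 2.1e-08). ACb had the lowest median for both, and for ANO3 it did not overlap with the other two. SLC32A1 differed little, with medians of 197, 223 and 216 CPM and overlapping ranges (FDR = 0.42).

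A set of genes was high in ACb and CN and low in PUT. PDYN had 657 to 1009 CPM (median 712) in ACb, 435 to 1077 CPM (median 772) in CN and 53.1 to 504 CPM (median 118) in PUT (FDR = 1.3e-05). DRD3 had 32.3 to 53.8 CPM (median 43.5), 24.5 to 58.7 CPM (median 39.8) and 3.35 to 27.3 CPM (median 5.27) (FDR = 3.0e-06). In both genes the highest PUT library reached into the range of CN, and most lay far below. Against neocortex, PUT alone had a log2FC of 1.11 for PDYN (FDR = 0.055, not called) and 4.35 for DRD3, compared with 3.66 and 6.94 in ACb. CRYM had medians of 587, 472 and 143 CPM (FDR = 2.8e-06) and FOXP2 of 59.03, 52.9 and 20.7 CPM (FDR = 6.4e-06). The choroid plexus marker AQP1, a water channel, showed this pattern too, with medians of 62.1, 65.02 and 5.75 CPM (FDR = 5.3e-06), and TTR, which carries thyroid hormone and defines the choroid plexus, had 5.63, 7.24 and 0.694 CPM (FDR = 0.0053).

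Other genes were highest in PUT. KRT77 had 0 to 1.82 CPM (median 0.215) in ACb, 0.278 to 41.7 CPM (median 9.96) in CN and 5.87 to 257 CPM (median 60.2) in PUT (FDR = 1.5e-08). AMBN had 2.33 to 6.86 CPM (median 3.55), 7.18 to 58.1 CPM (median 25.4) and 10.9 to 73.5 CPM (median 30.7) (FDR = 3.9e-07). In AMBN the ranges of CN and PUT overlapped and ACb lay below both. ADGRG7 was at 0 in 5 of 8 ACb libraries and had 0.258 to 28.4 CPM (median 9.68) in CN and 6.98 to 40.5 CPM (median 13.1) in PUT (FDR = 3.5e-07). PTHLH had 3.55 to 10.6 CPM (median 7.02) in ACb, 8.6 to 18.2 CPM (median 12.5) in CN and 19.8 to 34.8 CPM (median 27.9) in PUT (FDR = 6.4e-10), and against neocortex it was called only in PUT (log2FC 1.81). PVALB, which was low throughout, was likewise highest in PUT, with a median of 6.99 CPM against 0.892 in ACb and 0.341 in CN (FDR = 3.7e-08).

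For CNR1, NRGN and CARTPT the direction against neocortex turned between sub-regions. CNR1 had 9.61 to 48.8 CPM (median 19.3) in ACb, 41.9 to 114 CPM (median 70.1) in CN and 64 to 298 CPM (median 120.2) in PUT (FDR = 6.2e-06), and was called lower than neocortex in ACb (log2FC -1.17) and higher in PUT (log2FC 1.56). NRGN had 353 to 1118 CPM (median 681), 981 to 2203 CPM (median 1696) and 1879 to 3906 CPM (median 3019) (FDR = 2.0e-08), with log2FC of -1.17 in ACb and 1.05 in PUT. For NRGN, PUT overlapped with CN and not with ACb. CARTPT had 11.5 to 86.8 CPM (median 42.95) in ACb, 0.53 to 3.48 CPM (median 1.76) in CN and 0.239 to 2.59 CPM (median 0.678) in PUT (FDR = 4.6e-10), and was higher than neocortex in ACb (log2FC 2.52) and lower in CN (log2FC -2.05) and PUT (log2FC -3.07).

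Myelin genes were concentrated in PUT. MBP, a main protein of myelin, had 1089 to 3537 CPM (median 2359) in ACb, 1674 to 4316 CPM (median 2630.0) in CN and 6947 to 12898 CPM (median 9983) in PUT (FDR = 1.0e-07). Every PUT library exceeded every library of the other sub-regions. Against neocortex, 10 of 10 oligodendrocyte markers were called higher in PUT, 6 in CN and 0 in ACb. The part of myelinated tissue in the other differences of PUT was not tested.

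**Figure D4:**
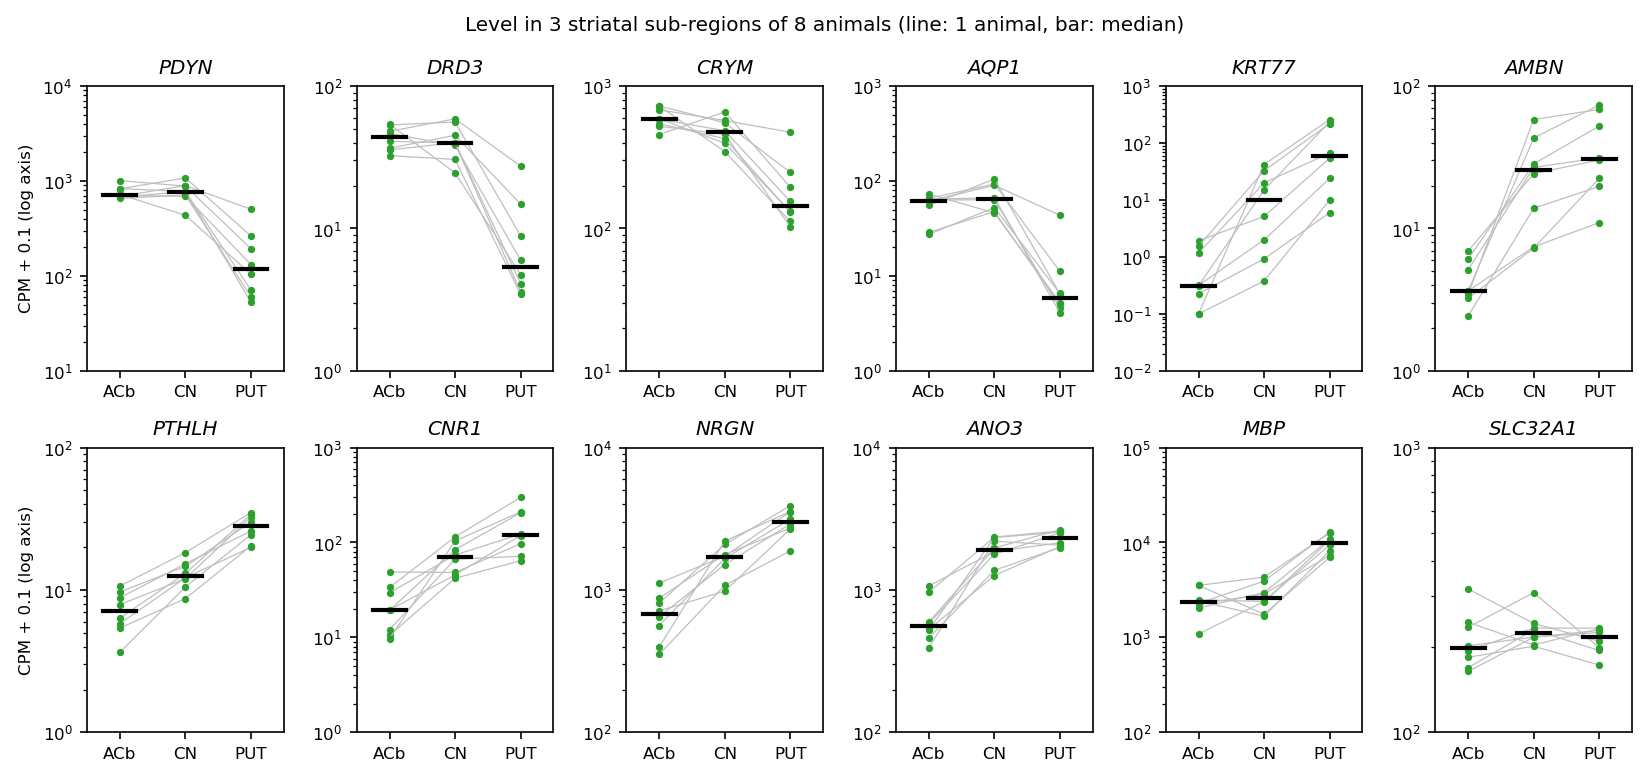
CPM + 0.1 (logarithmic axis) of 12 genes in the ACb, CN and PUT libraries of each of the 8 animals, joined by a line, with the median as a bar. PDYN, DRD3, CRYM and AQP1 fall in PUT, KRT77, AMBN, PTHLH, CNR1, NRGN, ANO3 and MBP are highest there, and the ranges of SLC32A1 overlap.

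To see which differences set the striatum apart from other deep structures, it was also compared with the amygdala and the globus pallidus, 1 library each per animal, in a fit of all 4 regions with a TMM scaling of its own. Against the amygdala, 1027 of 16418 genes (6.26%) were called higher in striatum and 1197 (7.29%) lower. Against the globus pallidus 2541 (15.5%) were higher and 2296 (14%) lower. The globus pallidus library of Rhesus 3 held more striatal transcripts than the other 7, with 261 CPM of PENK against 9.2 to 41.4 CPM and 61.4 CPM of DRD1 against 1.64 to 13.8 CPM. With Rhesus 3 left out 2620.0 genes were higher and 2354 lower.

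ADORA2A had 1.47 to 3.98 CPM (median 2.33) in the amygdala and 4.32 to 54.3 CPM (median 8.13) in the globus pallidus (log2FC 7.38, SE 0.37, FDR = 1.3e-14, and log2FC 5.22, SE 0.32, FDR = 2.3e-13). PPP1R1B had 109.6 to 181 CPM (median 138) and 177 to 393 CPM (median 198) (log2FC 3.94, SE 0.14, FDR = 1.2e-17, and log2FC 3.28, SE 0.14, FDR = 8.1e-17). Both were thus higher in striatum than in each of the other regions. DRD1 had 30.2 to 119 CPM (median 81.5) and 1.64 to 61.4 CPM (median 6.64) (log2FC 2.5, SE 0.35, FDR = 1.2e-06, and log2FC 5.45, SE 0.41, FDR = 1.2e-11). The pallidal range of DRD1 reached into that of the amygdala only through Rhesus 3. Without this animal the log2FC over the globus pallidus was 6.12 for DRD1 and 5.72 for ADORA2A. Of the 29 shared medium spiny neuron genes, 22 were called higher than in the amygdala and 27 higher than in the globus pallidus.

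For CRYM no difference from the amygdala was detected, which had 261 to 404 CPM (median 283) (log2FC 0.48, SE 0.28, FDR = 0.16). SLC17A7, in contrast, stood at 994 to 1396 CPM (median 1213) in the amygdala (log2FC -6.64, SE 0.64, FDR = 3.2e-09, and log2FC -8.9 without the 3 libraries) and at 0.156 to 5.13 CPM (median 1.46) in the globus pallidus. In the pallidum LHX8 was also expressed, at 0.638 to 17.5 CPM (median 4.33) (log2FC 0.85, SE 0.35, FDR = 0.034, below the fold required), and so was PBX3, at 33.8 to 64.7 CPM (median 58.3) (log2FC 0.75, SE 0.083, FDR = 8.8e-09, likewise). For GAD1 no difference from either was detected (log2FC 0.19, SE 0.10, FDR = 0.13, and log2FC 0.02, SE 0.10, FDR = 0.88). PVALB was higher in the pallidum, at 17.5 to 116 CPM (median 80.3) (log2FC -4.82, SE 0.24, FDR = 3.2e-15), and so were all 10 oligodendrocyte markers, whose part in the comparison was not tested.

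**Figure D5:**
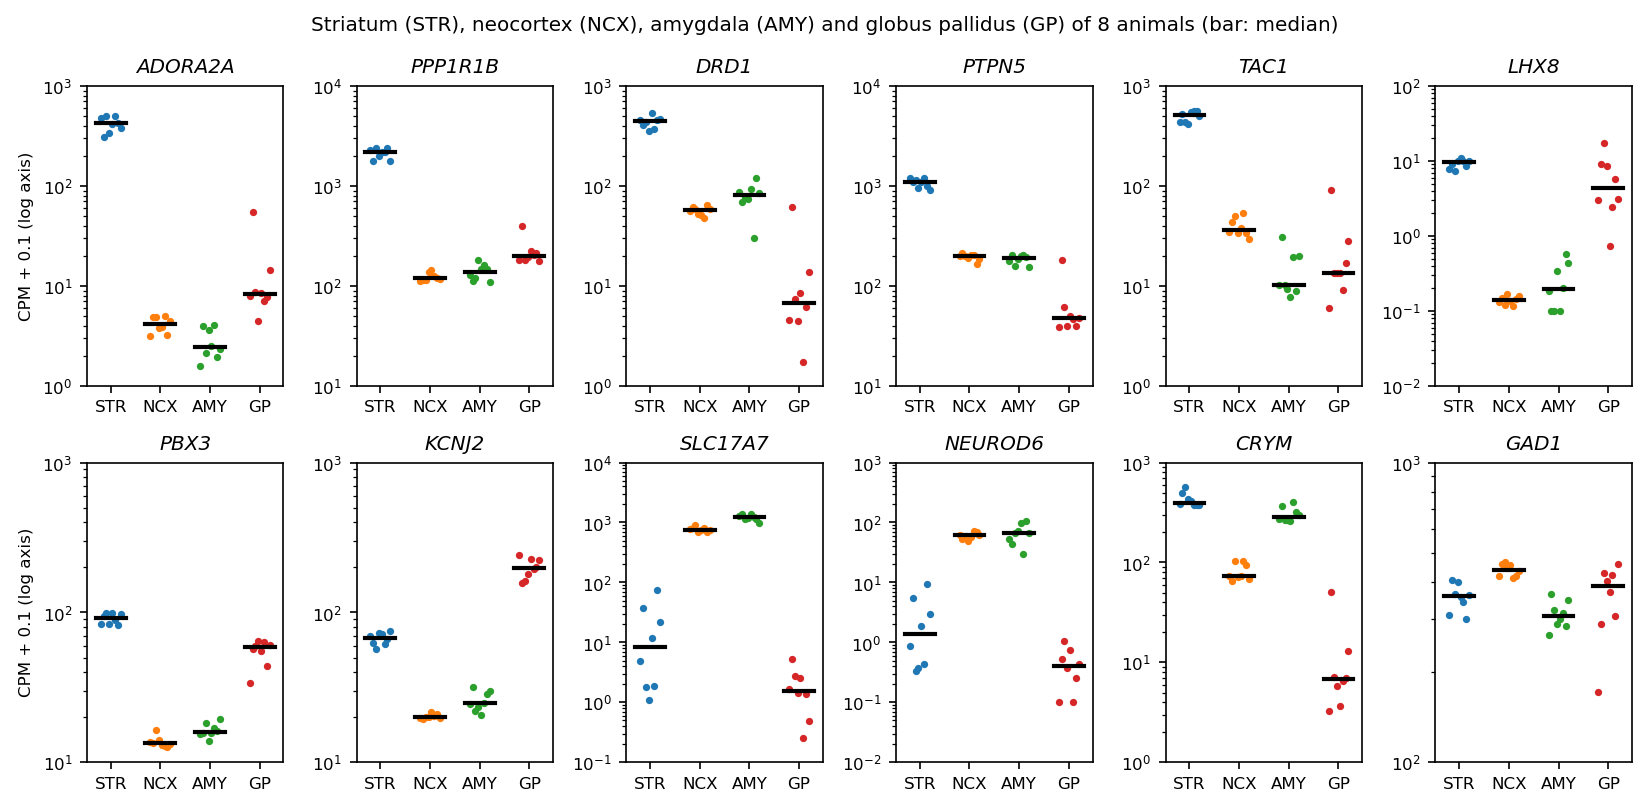
CPM + 0.1 (logarithmic axis) of 12 genes in striatum, neocortex, amygdala and globus pallidus, with 1 point per animal and the median as a bar. ADORA2A, PPP1R1B, DRD1, PTPN5 and TAC1 are highest in striatum, LHX8 and PBX3 also reach the globus pallidus, and the ranges of CRYM in striatum and amygdala overlap.

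Whether the difference between striatum and neocortex varied with age stage or sex was tested as an interaction, with 4 animals on each side. Of 19627 genes, edgeR called 0 for age stage and 0 for sex. At an unadjusted p < 0.05 there were 1924 genes (9.8%) for age stage and 281 (1.43%) for sex. With no interaction a share of 0.05 would be expected, and the share for sex lay below it. The test for sex was thus conservative, and its 0 calls do not show that no gene varied with sex. DESeq2 called 8 genes for age stage and 0 for sex, with 1940 and 264 genes at an unadjusted p < 0.05. The smallest FDR in edgeR was 0.056 for age stage, that of ST6GALNAC1, an enzyme that adds sialic acid to glycans. Its name was chosen after the values were seen. It had 2.05 to 3.83 CPM in striatum and 0.302 to 0.895 CPM in neocortex of young animals, and 2.74 to 6.93 CPM and 1.54 to 3.65 CPM in mid-aged ones. The striatal excess was smaller in mid-aged animals without reaching the threshold (interaction log2FC -1.87, SE 0.23), and DESeq2 gave FDR = 3.1e-10 for it. For ADORA2A and PPP1R1B the interaction with age stage was -0.23 (FDR = 0.79) and -0.16 (FDR = 0.71) on the log2 scale. Among listed or named genes, DESeq2 gave an adjusted p below the threshold for 5. AMBN was called, with a smaller striatal excess in mid-aged animals (FDR = 0.0079), though its few neocortical reads leave the size of the interaction uncertain. The interaction log2FC was 0.74 for CALB1 (FDR = 0.0047), 0.91 for CYP26B1 (FDR = 0.027), -0.7 for ADCY1 (FDR = 0.018) and -0.48 for STRN (FDR = 0.048), none past the fold required. In edgeR all 5 lay at FDR between 0.31 and 0.4.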

How the data were processed

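Whole-number counts per gene and library were used as deposited. Per the study's methods and the submitters' processing notes, the authors checked reads with FastQC 0.11.4, trimmed poor ones with Trim Galore 0.4.4, aligned them to Mmul 8.0.1 with HISAT2 2.0.5 and counted them on Ensembl 91 genes with HTSeq 0.6.1. The strand and overlap options are not given in the sources used here, so counts of overlapping genes and near-identical copies are uncertain. Of 30807 gene IDs, 17572 were named by a reference table and 583 by the study's supplement alone. List members without a matched ID were not analysed here, and a few members that were measured and counted are not reported here by name.

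Counts of the striatal and neocortical libraries were summed within each animal with Python 3.11.15 (numpy 2.4.6, pandas 2.3.3, scipy 1.17.1, matplotlib 3.10.9). Tests used edgeR 4.0.16 (limma 3.58.1, R 4.3.3) with TMM, filterByExpr, glmQLFit, glmQLFTest and Benjamini-Hochberg adjustment over all genes tested (FDR). The SE is the absolute log2FC divided by the square root of F. The animal was a block, since both profiles came from the same animal, and deviations of the pair from their group means correlated at 0.56 to 0.71 across genes. Where 1 or more profiles of the lower group had at most 3 counts, pooled counts and an exact Poisson interval replace the fold, which cover counting error only. Genes named are list members a result turns on and, per direction, the 12 with the largest absolute log2FC among called genes with a symbol of their own, 5 CPM or more in the higher group and the same direction in 8 animals. The members and lists were chosen with earlier results of these data known. On simulated data with 200 genes changed 4-fold, 200 were recovered for striatum against neocortex (18890.0 genes run), with 1 other call. The simulation gave all genes the same dispersion, balanced the directions and changed no scarce genes. It checks that the fit runs correctly and does not measure its power or error rate in these data. Alternatives were DESeq2 1.42.0, its size factors in edgeR, the study's detection rule (count above 1 in at least 3 libraries), no filter, no block, equal weights, each sub-region alone, each animal left out and a fold above 4. Leaving out 3 striatal libraries, or Rhesus 3 for the globus pallidus, was chosen after seeing the data. Left out were the midbrain and the ATAC-seq libraries, not analysed here.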

Additional observations from a re-analysis of the deposited data

Results flagged for a closer look

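The log2 ratio of striatum to neocortex was compared between the 8 animals for 123 named genes, and in 13 of them 1 animal lay apart from the others by Dixon's test at the 95% level. Chance gives about 1 in 20. Rhesus 2 stood alone for MBP (1.93, the others 1.31 to 1.57), PDE1A (-3.34, the others -2.45 to -1.75), PENK (6.51, the others 4.97 to 5.57) and RGS14 (4.6, the others 4.02 to 4.23). Rhesus 3 was set apart for PDE10A (3.77, the others 4.71 to 5.37) and TLE4 (2.79, the others 2.3 to 2.46). Rhesus 4 lay outside the other 7 animals for BCL11B (4.64, the others 2.66 to 3.41), OPRK1 (4.11, the others 2.48 to 3.18) and PDE4D (-0.935, the others -2.21 to -1.81). Rhesus 7 differed from the rest for DRD1 (3.39, the others 2.74 to 3.03), NKX2-1 (2.74, the others 3.48 to 4.08) and SLC17A8 (7.31, the others 4.3 to 5.35). Rhesus 8 stood alone for PPP1CB (-0.301, the others 0.01 to 0.29). Apart from PPP1CB, each gene had 1 sign in all 8 animals.

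CNR1 and NRGN were called higher than neocortex in PUT and lower in ACb, and differed among the 3 sub-regions (FDR = 6.25e-06 for CNR1 and 1.95e-08 for NRGN, edgeR's F test). CARTPT was higher in ACb and lower in CN and PUT than in neocortex (FDR = 4.62e-10 among the sub-regions).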

How the results depend on the processing

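An absolute log2FC above 2 left 504 genes called higher and 696 lower, and no other alternative moved these counts by more than 1.5 times (1651 to 1720.0 higher and 1648 to 1686 lower over the 8 fits that each left out 1 animal). The fit with no replicate block called 1644 higher and 1645 lower, and changed the call of no named gene. For the interaction with age stage, 0 genes became 8 with DESeq2, 1 with the study's detection rule, 1 with no filter and 0 to 1 without one animal. The 1 gene was ST6GALNAC1 in each (FDR = 0.018, 0.01 and, without Rhesus 4, 0.0032). For sex the count was 0 to 0. Of 132 named genes, 103 kept call and direction under every alternative. With ACb alone the direction turned for ITPKA (-0.303), CNR1 (-1.17), NRGN (-1.17), GAD1 (0.0321), GPR155 (-0.248), SST (0.296) and PTHLH (-0.177, log2FC throughout), and with PUT alone for FOXP2 (-0.604), MAOB (-0.558), OPRM1 (-0.156), PPP1CC (0.166), CALB1 (-0.486), CARTPT (-3.07, and -2.05 with CN alone) and the median of the dopamine signalling list (-0.24). ADCY1 (-0.99), CAMK4 and PTHLH, just short of 1, were called in 1 or more fits without an animal, and the microglial list had 0 to 4 members called. The causes were not tested. Striatal depth limits genes near 0: for TWIST1 and KCNS1 fewer than 50 striatal reads carry the fold, and for CHRNA6 only 15 do.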

Other observations

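Further receptor and channel families had members in both directions. Of 14 genes of muscarinic, nicotinic and adenosine receptors, 3 were higher in striatum and 4 lower. CHRM3, the M3 receptor, had 39.4 to 62.6 CPM (median 45.4) in striatum and 137 to 177 CPM (median 157) in neocortex (log2FC -1.72, SE 0.066, FDR = 1.4e-10), and its median was 22.1 CPM in ACb, 39.9 in CN and 94.97 in PUT (FDR = 9.1e-09 among them). CHRNA6, a nicotinic subunit known from dopaminergic terminals, had 6252 reads in neocortex against 15 in striatum, a ratio per read counted of 36.3 (95% exact Poisson interval 21.99 to 64.8), higher in neocortex. Among 9 inward rectifier potassium channels, KCNJ2 was higher, at 57.7 to 74.6 CPM (median 68.7) against 19.7 to 21.6 CPM (median 20.4) (log2FC 1.72, SE 0.051, FDR = 1.3e-11), and KCNJ3, a channel opened by G proteins, was lower, at 3.62 to 7.61 CPM (median 5.53) against 45.5 to 89.5 CPM (median 75.9) (log2FC -3.72, SE 0.086, FDR = 2.3e-12). KCNJ2 was higher still in the globus pallidus, at 157 to 242 CPM (median 199) (log2FC -1.57, SE 0.082, FDR = 4.6e-15).

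Retinoid genes were mostly not called (12 of 18), with 3 higher and 3 lower. CRABP1, which binds retinoic acid in the cytoplasm, had 41.6 to 58.2 CPM (median 55.7) in striatum and 0.632 to 1.27 CPM (median 0.854) in neocortex (log2FC 5.93, SE 0.092, FDR = 2.5e-13). The receptor RARB was higher (log2FC 1.39). CYP26B1, which breaks retinoic acid down, was lower, at 1.56 to 2.96 CPM (median 2.28) against 20.3 to 40.1 CPM (median 29.4) (log2FC -3.71, SE 0.17, FDR = 3.4e-09), and reached 116 to 249 CPM (median 186) in the amygdala (log2FC -6.28, SE 0.30, FDR = 4.6e-15). The groups of CRABP1 and of CYP26B1 were apart in all 8 animals. Lists for the claustrum and for the pallidum each had 2 members higher and 2 lower. The summed level of the claustrum list was 667 to 1418 CPM in striatum and 252 to 381 CPM in neocortex, with medians of 1329 CPM in ACb, 1504 CPM in CN and 492 CPM in PUT. Such a sum gives most weight to abundant genes, and the list as a whole was not higher. Its median log2FC was 0.2, and its mean log2(CPM + 1) overlapped, at 3.36 to 4.29 in striatum and 3.83 to 4.12 in neocortex. The list for midbrain dopamine neurons had 2 higher and 0 lower of 4, and that for ependymal cells 2 higher and 1 lower of 5.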
